A study of Mus musculus with 24 samples.

Results

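The 9 genes described here encode heart receptors for noradrenaline and adrenaline (Adra1a, Adra1b, Adra1d and Adrb1), acetylcholine (Chrm2), endothelin (Ednra and Ednrb), angiotensin II (Agtr1a) and adenosine (Adora1). They were chosen by name, with earlier results of these data known. All 9 were found in a table of estimated read counts for 20351 protein-coding genes. Of the 9, 6 had enough counts to be tested, and Adra1a, Adra1d and Agtr1a did not.

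Poly(A) RNA of HL-1 cells, a mouse line derived from atrial cardiomyocytes, was sequenced in 4 groups of 6 libraries. MuRF1 knockdown cells carried an adenovirus with a short hairpin RNA against MuRF1, a muscle ubiquitin ligase encoded by Trim63, and were either stretched or non-stretched. Control cells carried an adenovirus with a scrambled hairpin and were likewise stretched or non-stretched. All cells, controls included, had received virus at 30 infectious units per cell (MOI) for 48 h, and stretch was by 15% at 1 Hz for 60 min, given as uniaxial in one label and biaxial in another. The series title names the question, which is the part of MuRF1 in the response of cardiomyocyte transcripts to cyclic stretch. HL-1 is 1 immortalised line, and the labels do not say that libraries of a group came from separate cultures, so p-values measure the spread between these libraries, which may be technical.

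Estimated counts summed to 23.6 to 54.8 M per library, with stretched control replicate 5 the lowest and every other library at 37.7 M or more. That library also stood apart in its share of mitochondrial transcripts, at 1.45% against 2.49% to 3.67% in the other 23, and values without it stand beside the stretched control results that it moves most. Trim63 averaged 55.7 ± 1.17 CPM (counts per 1 M counts after TMM scaling) in non-stretched knockdown cells, against 640 ± 68.1 CPM in their controls. In stretched cells the means were 68.5 ± 7.92 CPM for knockdown and 781 ± 81.7 CPM for control (SD, n = 6 each). The targeted gene was thus 91.3% and 91.2% lower in knockdown cells (two-sided exact permutation test, p = 0.00216 each, the lowest possible with 12 libraries in equal groups). The code of each library holds a number, which is 8 in stretched and 5 in non-stretched knockdown cells, and 4 in stretched and 1 in non-stretched control cells. Whatever it marks cannot be told apart from the groups. The code also holds a letter, a for replicates 1 to 3 and b for replicates 4 to 6, whose meaning the labels do not give.

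These receptors sit in the cell membrane and signal through G proteins. The beta-1 adrenoceptor (Adrb1) couples to the stimulatory G protein, raises cyclic AMP and speeds and strengthens the beat, whereas the muscarinic M2 receptor (Chrm2) and the adenosine A1 receptor (Adora1) couple to inhibitory G proteins, lower cyclic AMP and open an acetylcholine-gated potassium channel, which is prominent in the atrium. The alpha-1 adrenoceptors (Adra1a, Adra1b, Adra1d), the endothelin receptors (Ednra, Ednrb) and the angiotensin type 1 receptor (Agtr1a) act mainly through the Gq family and phospholipase C, which releases calcium and, on long stimulation, can drive hypertrophy of cardiomyocytes.

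In GENCODE vM21 on GRCm38, Chrm2 lies at chr6:36388084-36528414 (plus strand, 3 exons in the longest coding transcript), Ednra at chr8:77663031-77724464 (minus strand, 8 exons) and Ednrb at chr14:103814625-103844402 (minus strand, 8 exons). Adrb1 lies at chr19:56722199-56733113 (plus strand, 1 exon), Adra1b at chr11:43774606-43901210 (minus strand, 5 exons) and Adora1 at chr1:134199223-134235431 (minus strand, 3 exons). Of the low genes, Adra1a lies at chr14:66635251-66771168 (plus strand), Adra1d at chr2:131545850-131562283 (minus strand) and Agtr1a at chr13:30336441-30382867 (plus strand). Adora1 overlaps the coding gene Mybph on the opposite strand, and Chrm2 and Ednra overlap noncoding genes there. Whether counting used strand is not stated, so the values of these 3 are uncertain to that extent.

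The promoters of the 2 genes with the deepest falls and of the gene with the opposite change are shown so that their sequence can be set beside the values below. RefSeq sequences on GRCm38.p6 were matched by symbol for 6 of the 9 genes, and the 250 bases before the start site are printed 5′ to 3′ on the gene's strand. Chrm2 has its window at chr6:36387834-36388083 (plus strand), Ednra at chr8:77724453-77724702 (minus strand) and Adrb1 at chr19:56721867-56722116 (plus strand). Capitals mark matches, on either strand, to 8 strings of letters. These are AAGTG for the cardiac factor NKX2-5, GGAATG for the TEAD family, TGACG as the core of a cyclic AMP response element, TGANTCA for AP-1, CANNTG as the E-box, GGGCGG as the box of Sp1-like factors, TATAAA of the core promoter and GATAA for the cardiac zinc finger factors such as GATA4.
Chrm2: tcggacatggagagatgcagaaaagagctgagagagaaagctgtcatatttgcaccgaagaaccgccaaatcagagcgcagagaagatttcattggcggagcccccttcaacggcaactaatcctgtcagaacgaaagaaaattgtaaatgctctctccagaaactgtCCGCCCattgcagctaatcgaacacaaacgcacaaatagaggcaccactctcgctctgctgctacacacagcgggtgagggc
Ednra: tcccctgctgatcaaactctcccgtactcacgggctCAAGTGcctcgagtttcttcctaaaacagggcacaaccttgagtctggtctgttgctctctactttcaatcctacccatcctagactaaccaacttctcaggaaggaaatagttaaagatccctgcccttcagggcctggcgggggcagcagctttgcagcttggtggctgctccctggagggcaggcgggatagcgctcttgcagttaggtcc
Adrb1: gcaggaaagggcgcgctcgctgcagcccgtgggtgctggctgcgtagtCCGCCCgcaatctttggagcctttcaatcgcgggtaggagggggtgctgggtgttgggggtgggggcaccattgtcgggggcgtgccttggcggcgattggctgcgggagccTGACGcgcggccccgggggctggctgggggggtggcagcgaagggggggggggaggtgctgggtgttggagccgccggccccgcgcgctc
The Chrm2 and Adrb1 windows each hold 1 GGGCGG string, read on the opposite strand as CCGCCC, and 32.7% of 32807 promoter windows of the same length hold one. The Adrb1 window also holds 1 TGACG string (17.8% of all windows). The Ednra window holds 1 E-box overlapping 1 AAGTG string (66.2% and 40.7% of all windows). GC content was 50.0% for Chrm2, 54.8% for Ednra and 74.0% for Adrb1, against a median of 52.4% over all windows. A match of letters is a description and not a binding site.

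Per transcript length, the M2 receptor was the most abundant of the 9 in every group. In non-stretched cells, Chrm2 stood at 15.0 ± 0.801 CPM per kb in knockdown and 43.3 ± 4.12 CPM per kb in control cells, and Adrb1 at 8.93 ± 0.776 and 7.28 ± 0.300 CPM per kb (SD, n = 6 each). Ednra followed with 1.52 ± 0.182 in knockdown and 5.15 ± 0.428 CPM per kb in control cells, Adora1 with 1.34 ± 0.148 and 1.84 ± 0.128, and Adra1b with 0.591 ± 0.0509 and 1.07 ± 0.0797. These 5 kept that order in all 4 groups. Their neighbours in the order did not overlap, except Ednra and Adora1 in non-stretched knockdown cells and Adrb1 and Ednra in stretched control cells. Ranked against 18373 genes with a known length, Chrm2 lay below 26.1% of genes in non-stretched knockdown cells and below 10.0% in non-stretched control cells.

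The other 4 genes were near the limit of detection. Ednrb had 4.07 to 24.0 estimated counts per library and stood at 0.0580 ± 0.0225 CPM per kb in knockdown and 0.0918 ± 0.0250 CPM per kb in control cells without stretch (SD, n = 6 each). Adra1a had at most 7.21 counts in a library and was at 0 in 5 libraries, Adra1d had at most 3.36 counts and was at 0 in 12, and Agtr1a had at most 2 counts and was at 0 in 17. A count of 0 allows up to 3 counts, which is 0.0556 to 0.123 CPM depending on the library and covers counting error only. Reads of Agtr1a may be shared with its close copy Agtr1b, so its counts are uncertain. None of 12 exact permutation tests on these 3 genes passed (two-sided, n = 6 each, unadjusted p of 0.132 to 1, adjusted p of at least 0.954). At counts this low a difference may have gone unseen.

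**Figure D1:**
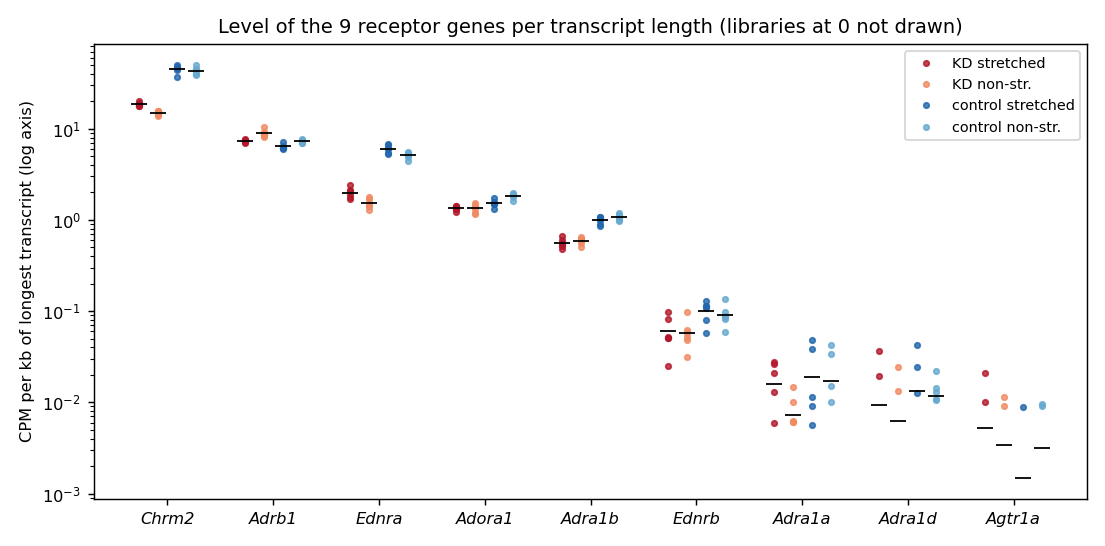
Level of each receptor gene as CPM per kb of its longest annotated transcript on a log axis, with points for libraries above 0 and a black dash for the mean of 6 libraries. Chrm2 is highest in every group, with means of 15.0 to 45.3 CPM per kb, and Ednrb, Adra1a, Adra1d and Agtr1a lie below the other 5 in every group.

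The question of the knockdown comparison is how these transcripts differ between cells with little and with normal Trim63 RNA. Chrm2, Ednra, Adra1b and Adora1 fell in knockdown cells and Adrb1 rose, both without and with stretch, while Ednrb passed with stretch and missed the threshold without. Without stretch, 4 of the 6 tested receptors fell, where 29.7% of all 14411 tested genes fell, and 1 rose, where 28% of all genes rose. With stretch, 5 fell and 1 rose, against 26.9% and 25.1% of all genes. The 2 comparisons share no library. Chrm2, Ednra, Adra1b and Adora1 fell in both, as did 24.7% of all genes, and Adrb1 rose in both, as did 21.3%. Libraries of the 2 kinds of cell did not overlap for 4 receptors that were lower (21.4% of all genes) and 1 that was higher (16.3%) without stretch, and for 3 that were lower with stretch (17.3%). In each, 57.8% and 52% of all tested genes passed, so being called sets a receptor apart little, and the size of its change is given against all genes below.

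Chrm2 without stretch ran from a lowest value of 78.9 over a median of 85.7 to a highest value of 89.7 CPM in knockdown libraries, against 223, 242 and 283 CPM in control libraries. With stretch, these values were 101, 104 and 113 CPM in knockdown and 207, 264 and 286 CPM in control libraries. Every knockdown library lay below every control library, and the lowest of the stretched control libraries was the outlying replicate 5. The M2 receptor transcript had a log2 fold change of -1.53 without stretch (SE 0.0630, edgeR adjusted p = 4.35e-17) and of -1.29 with stretch (SE 0.0624, adjusted p = 1.81e-15), so that it was 2.89-fold and 2.45-fold lower. Of all tested genes, 1.06% had a lower log2 fold change without stretch and 1.27% with stretch. Without stretched control replicate 5 the change with stretch was -1.35.

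Ednra, the endothelin ET-A receptor, which binds endothelin-1 with high affinity, had the deepest fall of the 6 tested receptors. Without stretch its lowest, median and highest values were 4.67, 5.34 and 6.46 CPM in knockdown libraries, against 16.1, 19.0 and 20.3 CPM in control libraries. With stretch they were 6.14, 7.19 and 8.64 CPM in knockdown and 19.3, 22.1 and 24.6 CPM in control libraries. Every knockdown library lay below every control library in both comparisons. The fall was 1.76 on the log2 scale without stretch (SE 0.0843, adjusted p = 3.66e-16) and 1.60 with stretch (SE 0.0815, adjusted p = 2.1e-15), 3.38-fold and 3.03-fold lower. Only 88 and 89 of the 14411 tested genes had lower log2 fold changes. Ednrb, the ET-B receptor, which takes all endothelins alike, had a median of 0.223 CPM in knockdown and 0.361 CPM in control libraries without stretch, and 0.212 and 0.456 CPM with stretch, and its groups overlapped. It fell with stretch (log2 fold change -0.73, SE 0.281, adjusted p = 0.0314) and had a log2 fold change of -0.66 without (SE 0.287, adjusted p = 0.0515). The Ednrb call with stretch was lost when any of 7 libraries was left out. It was not made without a filter on low counts or when just the compared groups were fitted. Nor was it made in the deposited normalized table or within letter a. Without stretch, Ednrb passed with limma-voom (adjusted p = 0.0436), when just the compared groups were fitted (adjusted p = 0.0438) and without any one of 6 libraries (lowest adjusted p = 0.0143, at -0.87, without non-stretched knockdown replicate 1).

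Adra1b was the alpha-1 adrenoceptor subtype with measurable counts, at 70.6 to 188 per library. Its lowest, median and highest values without stretch were 1.69, 2.00 and 2.15 CPM in knockdown libraries, against 3.24, 3.56 and 3.95 CPM in control libraries. With stretch they were 1.58, 1.82 and 2.19 CPM in knockdown and 2.85, 3.34 and 3.62 CPM in control libraries. No knockdown library reached a control library. Adra1b fell by 0.86 on the log2 scale without stretch (SE 0.0877, adjusted p = 2.66e-09) and by 0.82 with stretch (SE 0.0890, adjusted p = 9.4e-09), and 4.14% and 3.73% of tested genes had lower log2 fold changes.

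Adora1, which slows the heart when adenosine builds up, moved less. Its lowest, median and highest values without stretch were 5.82, 6.70 and 7.59 CPM in knockdown libraries and 8.01, 9.27 and 9.75 CPM in control libraries, which did not overlap. With stretch they were 6.00, 6.67 and 7.11 CPM against 6.61, 7.53 and 8.58 CPM, which overlapped. Without stretch the log2 fold change was -0.45 (SE 0.0686, adjusted p = 2.36e-06), and with stretch -0.18 (SE 0.0699, adjusted p = 0.0369). The change with stretch did not pass without stretched control replicate 5 (-0.14, adjusted p = 0.0839), without any of 6 other libraries, with DESeq2 size factors (adjusted p = 0.051), without a filter on low counts or in the deposited normalized table (-0.13, adjusted p = 0.213), and within letter a it was -0.08.

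Adrb1 was the 1 tested receptor that was higher in knockdown cells. Without stretch its lowest, median and highest values were 24.2, 25.5 and 30.5 CPM in knockdown libraries, all above the 20.6, 21.3 and 23.0 CPM of control libraries. With stretch they were 20.8, 21.7 and 22.9 CPM in knockdown and 17.8, 18.5 and 21.2 CPM in control libraries, where stretched control replicate 5 was the single library in the range of the knockdown cells. Without stretch the log2 fold change was 0.29 (SE 0.0483, adjusted p = 8.44e-06), and with stretch 0.20 (SE 0.0494, adjusted p = 0.000993), or 1.23-fold and 1.15-fold. These are modest beside all genes, of which 18.1% and 21.1% had higher log2 fold changes. The change with stretch was 0.23 without stretched control replicate 5 and 0.13 within letter b (adjusted p = 0.166).

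**Figure D2:**
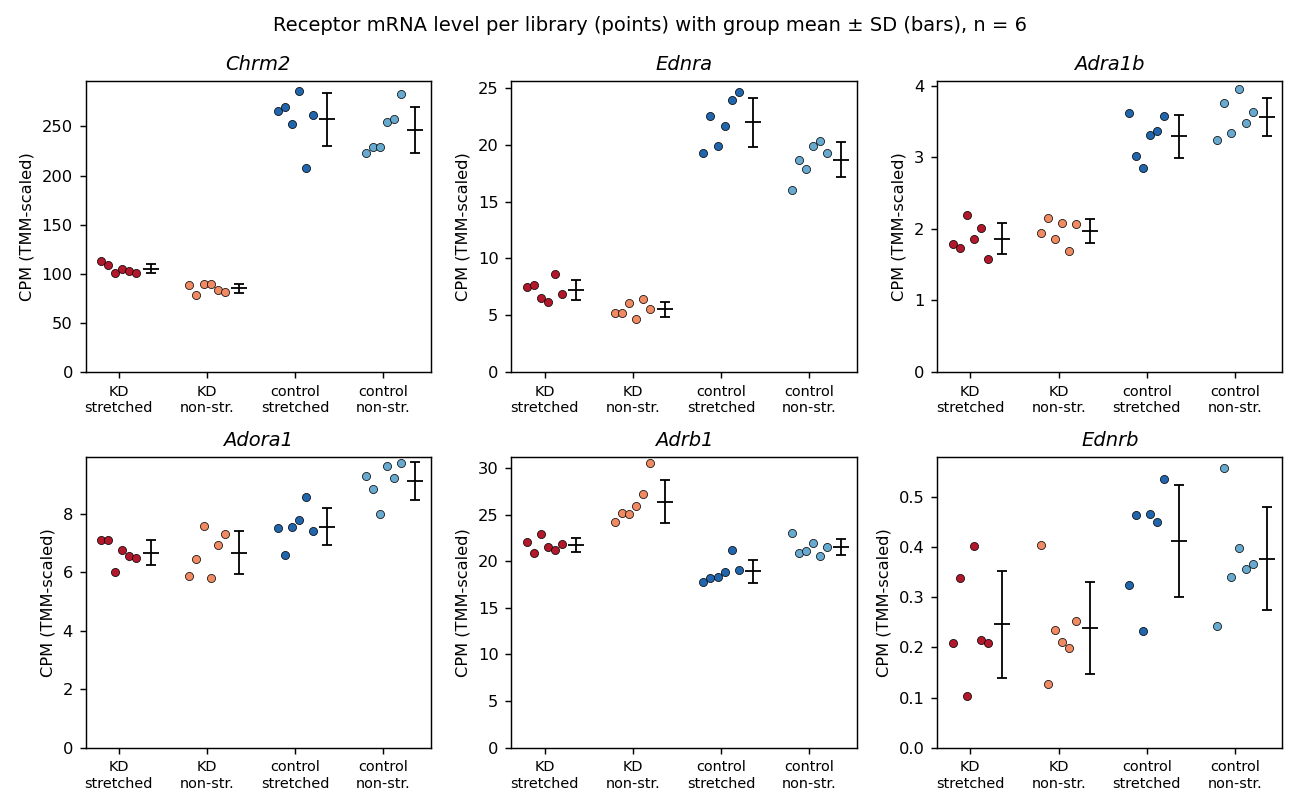
CPM of the 6 tested receptors in each library (points) with the mean ± SD of 6 libraries beside them, in stretched and non-stretched knockdown cells and stretched and non-stretched control cells. For Chrm2, Ednra and Adra1b, every knockdown library lies below every control library of the same stretch state. Of all tested genes, 21.4% do so without and 17.3% with stretch. Ednrb is low and scattered throughout.

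Chrm2, the inhibitory receptor, and Adrb1, the stimulatory one, changed in opposite directions. Per transcript length, the ratio of Chrm2 to Adrb1 was 1.69 ± 0.191 in knockdown and 5.96 ± 0.645 in control cells without stretch (SD, n = 6 each). With stretch the ratio was 2.52 ± 0.155 in knockdown and 7.13 ± 1.05 in control cells. Stretched control replicate 5 had the lowest ratio of its group, at 5.08, and the highest was 7.90. The highest single knockdown library had a ratio of 2.71 and the lowest control library one of 5.04. The ratio is given as a description, since it was formed after the values of both genes were known.

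**Figure D3:**
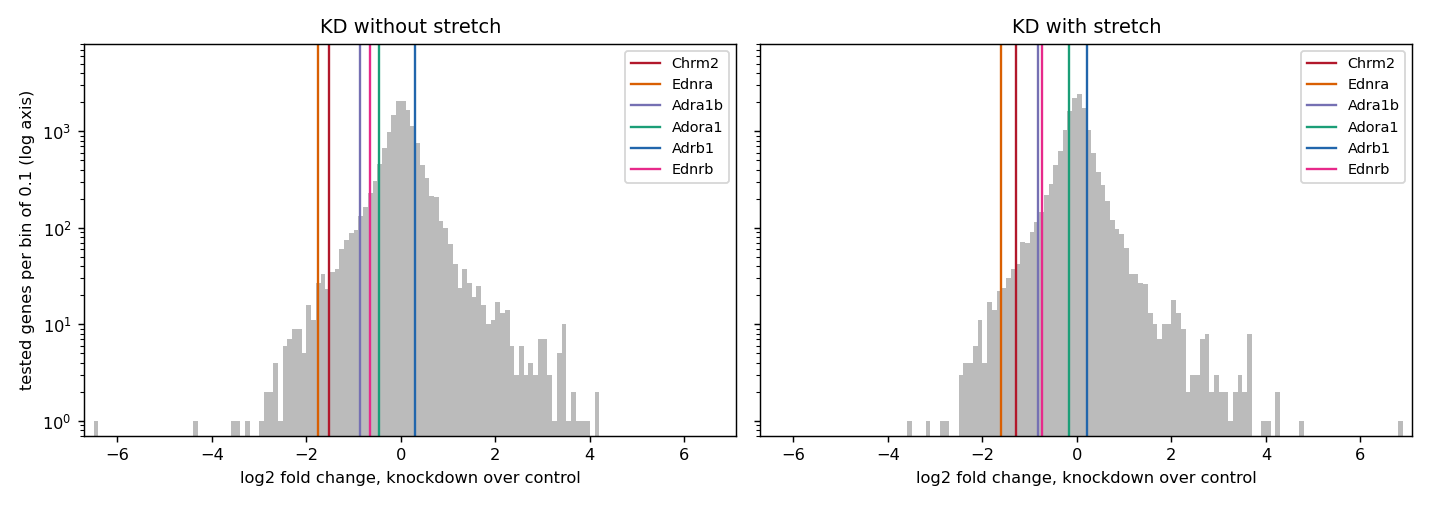
Distribution of log2 fold changes of knockdown over control over 14411 tested genes without and with stretch (bins of 0.1, number of genes on a log axis), with a line for each tested receptor. Ednra and Chrm2 lie in the lower tail, at -1.76 and -1.53 without stretch, and Adrb1 lies on the other side of 0, at 0.29.

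Other transcripts of heart muscle moved in the same comparisons, in which over all tested genes 29.7% fell and 28% rose without stretch. With stretch, 26.9% of all genes fell and 25.1% rose. Of 12 atrial cardiomyocyte markers, 10 fell, Nkx2-5 rose (log2 fold change of 0.25 without and 0.24 with stretch) and Nppa did not pass in either comparison. Their summed level ran from 1174 to 1280 CPM in knockdown and from 2374 to 2671 CPM in control libraries without stretch, and from 1308 to 1343 CPM against 2232 to 2730 CPM with stretch. Nppa, the atrial natriuretic peptide gene and a defining product of the atrium, stood at only 0.393 to 0.560 CPM in the 4 groups, while the atrial light chain Myl7 stood at 70.0 to 224 CPM and troponin T (Tnnt2) at 513 to 1268 CPM. Of 6 tested fibroblast markers, 5 fell, and their summed level ran from 80.0 to 97.4 CPM in knockdown and from 244 to 250.1 CPM in control libraries without stretch, and from 95.6 to 101 CPM against 216 to 243 CPM with stretch. Of 6 smooth muscle markers 4 fell and, with stretch, Myh11 rose, of 3 tested endothelial markers 1 fell, and Cdh5, Emcn and Vwf were at or near 0, at no more than 0.0428 CPM in any group. Of 3 tested macrophage markers, 2 rose without stretch and 1, Cd68, with stretch, at summed levels of 2.18 to 2.91 CPM in knockdown and 1.56 to 2.07 CPM in control libraries without stretch. With stretch the macrophage sums were 3.01 to 4.04 CPM in knockdown and 2.22 to 3.66 CPM in control libraries. Smooth muscle sums were 1699 to 1845 CPM against 2463 to 2691 CPM without stretch and 1824 to 1918 CPM against 2464 to 2838 CPM with stretch. Endothelial sums stayed within 7.16 to 10.2 CPM and neural sums within 2.29 to 3.70 CPM in all groups, and neither of 2 tested neural markers passed. In the stretch comparisons, 3 atrial markers rose in knockdown and 1 in control cells, and of 3 tested macrophage markers 1 and 2 rose. Over all tested genes, 5.32% rose with stretch in knockdown cells, and 2.55% rose and 3.39% fell in control cells. The smooth muscle marker Lmod1 rose in both kinds of cell (0.37 and 0.32), and the fibroblast marker Col1a1 fell in control cells (-0.17). The part of these markers in the receptor changes was not tested, and in bulk RNA fewer cells of a type and less RNA per cell cannot be told apart.

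Stretch of knockdown cells raised Chrm2 and Ednra and lowered Adrb1. Of all tested genes, 8.93% passed in this comparison (5.32% rose and 3.61% fell), and of the 6 tested receptors 2 rose, 1 fell and 3 did not pass. Chrm2 averaged 105 ± 4.84 CPM with stretch and 85.2 ± 4.55 CPM without it (SD, n = 6 each), and every stretched library lay above every non-stretched one. Its log2 fold change was 0.30 (SE 0.0625, adjusted p = 0.00236). Ednra averaged 7.23 ± 0.902 CPM with stretch and 5.51 ± 0.660 CPM without it, with overlapping groups, and rose by 0.39 (SE 0.0895, adjusted p = 0.00582). Adrb1 averaged 21.7 ± 0.723 CPM with stretch and 26.4 ± 2.29 CPM without it, with no overlap, and its log2 fold change was -0.28 (SE 0.0482, adjusted p = 0.000337). Separation of all 6 libraries from the other 6 was seen in 3.49% of all genes upwards and 1.95% downwards. Within letter b, Chrm2 (0.27, adjusted p = 0.201) and Ednra (0.37, adjusted p = 0.216) did not pass, while within letter a they were 0.33 and 0.41 and passed (adjusted p = 0.000606 and 0.0148). Adra1b (-0.08, 95% interval -0.27 to 0.11), Adora1 (0.00, -0.14 to 0.15) and Ednrb (0.08, -0.53 to 0.70) did not pass.

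Stretch of control cells lowered Adrb1 and Adora1, and none of the 6 tested receptors rose. In this comparison 5.95% of all tested genes passed (3.39% fell and 2.55% rose). Rises made up 42.9% of these calls, but 60.7% without a filter on low counts and 57.0% with a stricter filter. They made up 58.9% when just the compared groups were fitted, 51.5% in the deposited normalized table and 61.4% without stretched knockdown replicate 1. Without non-stretched knockdown replicate 4 they made up 59.6%, and within letter b 87.5% of the 32 calls. No receptor had its stretched libraries apart from its non-stretched ones, as 3.19% of all genes had. Adrb1 averaged 18.9 ± 1.22 CPM with stretch and 21.5 ± 0.885 CPM without it (SD, n = 6 each), and the groups overlapped through stretched replicate 5 alone. Its log2 fold change was -0.19 (SE 0.0495, adjusted p = 0.0207), -0.22 without that library and -0.17 without stretched control replicate 1, where it did not pass (adjusted p = 0.0568). It did not pass either when just the compared groups were fitted (adjusted p = 0.069) or within letter b. Adora1 averaged 7.57 ± 0.635 CPM with stretch and 9.13 ± 0.634 CPM without it. Its log2 fold change was -0.28 (SE 0.0686, adjusted p = 0.0159). The call was not made in the deposited normalized table (adjusted p = 0.067) or within letter b (-0.27, adjusted p = 0.314). Without stretched control replicate 5 the change was -0.31 (adjusted p = 0.00358).

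Ednra and Chrm2 did not pass with stretch in control cells. Ednra averaged 22.0 ± 2.14 CPM with stretch and 18.7 ± 1.55 CPM without it (SD, n = 6 each), and its log2 fold change was 0.23 (SE 0.0758, adjusted p = 0.0671). The change was 0.23 to 0.24 and passed with DESeq2 (adjusted p = 0.0409), with limma-voom (adjusted p = 0.046), with the code letter as a block (adjusted p = 0.047) and with the replicate block (adjusted p = 0.025). It also passed without non-stretched knockdown replicate 4 (0.25, adjusted p = 0.0356) and within letter a (0.22, adjusted p = 0.0423). Without stretched control replicate 5 it was 0.21 (adjusted p = 0.0679). Chrm2 averaged 257 ± 26.8 CPM with stretch and 246 ± 23.4 CPM without it, with a log2 fold change of 0.07 (95% interval -0.06 to 0.19). Without stretched control replicate 5 it was 0.12 (adjusted p = 0.114). Within letter a it was 0.20 and passed (edgeR adjusted p = 0.0036), and within letter b it was -0.07 and did not pass (adjusted p = 0.754). Adra1b (-0.12, SE 0.0846) and Ednrb (0.15, SE 0.267) did not pass either.

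The interaction asks whether the stretch response differed between knockdown and control cells. None of the 6 tested receptors passed in edgeR, limma-voom or DESeq2, and 2 of them had an unadjusted p under 0.05 in each of these tools. In edgeR, 0.0208% of all tested genes passed. The interaction was 0.28 for Adora1 (95% interval 0.08 to 0.48, adjusted p = 0.337), 0.24 for Chrm2 (0.06 to 0.42, adjusted p = 0.369), 0.16 for Ednra (-0.08 to 0.40, adjusted p = 0.717) and -0.09 for Adrb1 (-0.23 to 0.05, adjusted p = 0.738). It was 0.03 for Adra1b (-0.22 to 0.29, adjusted p = 0.971) and -0.07 for Ednrb (-0.91 to 0.77, adjusted p = 0.981). Without stretched control replicate 5 it was 0.31 for Adora1 (adjusted p = 0.105) and 0.18 for Chrm2 (adjusted p = 0.184). A response of these receptors that passed in only 1 kind of cell was therefore not shown to differ between them.

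**Figure D4:**
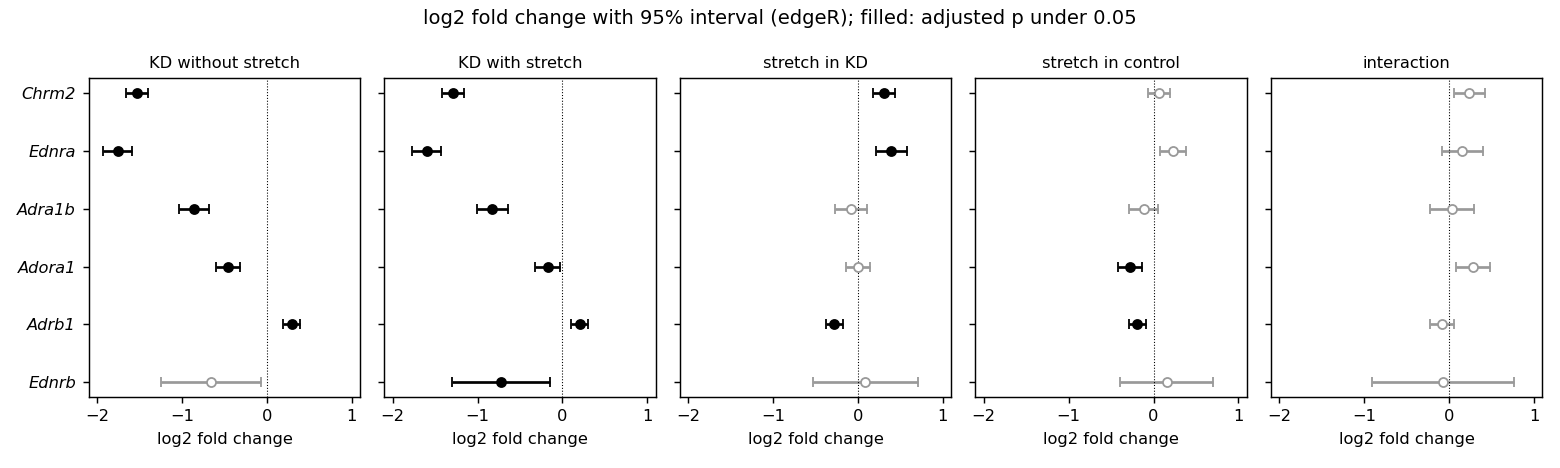
Log2 fold change with its 95% interval for the 6 tested receptors in the knockdown, stretch and interaction comparisons, with filled points where the adjusted p was under 0.05. Adrb1 fell with stretch in both kinds of cell (-0.28 and -0.19), and no interaction passed.

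Of 15 further receptors of the same families, 10 were tested and 2 fell in both knockdown comparisons, against 29.7% and 26.9% of all genes, with a list median of 0.02 without stretch and 0.06 with stretch, beside 0.01 and 0.00 over all genes. Adrb3, the beta-3 adrenoceptor, averaged 2.34 CPM in knockdown and 5.13 CPM in control cells without stretch (log2 fold change -1.13, SE 0.116, adjusted p = 3.02e-09) and fell by 0.95 with stretch. Adra2b, an alpha-2 adrenoceptor, fell by 0.76 (adjusted p = 0.0011) and 1.06 (adjusted p = 4.63e-05). Adra2a, which lies under the level at which genes were to be named and was picked after its values were seen, rose with stretch in knockdown cells (1.22 CPM stretched and 0.569 CPM non-stretched, log2 fold change 1.09, SE 0.174, adjusted p = 0.000146) and in control cells (1.28 and 0.752 CPM, log2 fold change 0.76, SE 0.170, adjusted p = 0.00863).

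Genes that make or remove the ligands were called in both directions. Of 19 listed, 9 had enough counts, of which 3 rose and 4 fell with the knockdown without stretch, and 4 rose and 2 fell with stretch. These are 33.3% and 44.4% without stretch, and 44.4% and 22.2% with stretch, against 28% and 29.7%, and 25.1% and 26.9%, of all genes. Ddc, the decarboxylase of catecholamine synthesis, had the largest fall named, with a log2 fold change of -1.95 without stretch (SE 0.126, adjusted p = 2.12e-13) and, at 1.41 CPM in knockdown and 4.83 CPM in control cells, of -1.79 with stretch. Th and Dbh, the other enzymes of that route, were at or near 0, with group means of 0.00683 to 0.0354 CPM. Nt5e, which makes adenosine outside the cell, rose by 0.77 and 0.80, and Ece2, an endothelin-converting enzyme, rose by 0.51 and 0.60. Edn1, which encodes endothelin-1, the ligand of Ednra, averaged 5.34 CPM with stretch and 4.02 CPM without it in knockdown cells and rose (log2 fold change 0.41, SE 0.122, adjusted p = 0.0337).

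Transcripts of the G proteins and of the cyclic AMP branch fell more often than they rose in knockdown cells. Of 24 tested G protein subunits, 14 fell and 1 rose without stretch, and 13 fell and none rose with stretch. Over all genes, 29.7% fell and 28% rose without stretch, and 26.9% fell and 25.1% rose with stretch. The median log2 fold changes were -0.16 and -0.12. Gnaq, the alpha subunit that alpha-1, endothelin and angiotensin receptors use, averaged 74.1 CPM in knockdown and 105 CPM in control cells without stretch and fell by 0.50 (SE 0.0282, adjusted p = 1.2e-14) and by 0.43 with stretch. Gng2, a gamma subunit, fell by 0.86 and 0.82, Gng10 rose by 0.19 without stretch, and Gng3 rose with stretch by 0.53 in knockdown and 0.46 in control cells. Of 31 tested genes that make, break down or read cyclic AMP, 18 fell and 6 rose without stretch, and 18 fell and 2 rose with stretch, or 58.1% falling in each, against the same shares over all genes. Pde4b, a cyclic AMP phosphodiesterase, fell by 0.66 in both comparisons, and Bves, a cyclic AMP-binding membrane protein, by 0.63 and 0.60. The cyclase gene Adcy3 rose by 0.45 and 0.52, Pde7a rose by 0.17 without stretch and Adcy9 by 0.29 with stretch. Stretch raised Adcy7 (0.51) and the kinase subunit Prkar2b (0.26) in knockdown cells and Pde7a (0.10) in control cells.

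Among genes of phospholipase C, calcium and related signalling, 14 of 24 tested genes fell and 4 rose without stretch, and 10 fell and 6 rose with stretch. Falls thus made up 58.3% without and 41.7% with stretch, against 29.7% and 26.9% of all genes. Itpr1, a receptor that releases stored calcium, fell by 0.59 and 0.51, and the protein kinase C gene Prkca by 0.63 and 0.51. The related kinase Prkce rose by 0.31 and 0.32, and Rcan1, a calcineurin regulator that calcineurin signalling itself induces, by 0.31 and 0.38. With stretch, Prkca (0.16) and Rcan1 (0.10) rose in knockdown cells and Nfatc1 fell in control cells (-0.17). Among 16 tested receptor kinases, arrestins and RGS proteins, which end receptor signals, 6 rose and 5 fell without stretch, and 5 rose and 6 fell with stretch. These shares, of 31.3% to 37.5%, are near those of all genes, which lie at 25.1% to 29.7%. Rgs7 fell by 1.84 and 1.72 and Rgs6, which in the heart shortens the M2 receptor signal, by 1.28 and 1.12, while Rgs17 rose by 1.63 and 1.29 and the arrestin gene Arrb2 by 0.14 and 0.17. Rgs19 fell with stretch in knockdown (-0.21) and control cells (-0.16), and Adrbk1, which encodes the receptor kinase GRK2, fell in control cells (-0.11).

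Most channels and pumps on which these receptors act fell. Of 14 tested, 12 fell and 1 rose in both knockdown comparisons, or 85.7% falling, against 29.7% of all genes without and 26.9% with stretch, with medians of -0.91 without and -0.79 with stretch. Ryr2, the calcium release channel, averaged 125 CPM in knockdown and 270.5 CPM in control cells without stretch (log2 fold change -1.11, SE 0.0377, adjusted p = 2.83e-19). It fell by 0.96 with stretch. Ryr2 is also among the atrial cardiomyocyte markers above, so the falls counted in these lists are not fully separate. Kcne1, a potassium channel subunit, rose by 0.39 and 0.40. Kcnj5 and Kcnj3, the subunits of the potassium channel that M2 and A1 receptors open, were picked after their values were seen and fell by 1.40 and 0.81 without and by 1.31 and 0.71 with stretch. Stretch of knockdown cells raised 6 of the 14 (42.9%, against 5.32% of all genes), among them the calcium channel Cacna1c (0.23, SE 0.0531, adjusted p = 0.00686), and stretch of control cells raised 1 (2.55% of all genes), the pacemaker channel Hcn4 (0.20, SE 0.052, adjusted p = 0.0186). The lists were chosen with earlier results of these data known, so their counts describe these genes and single out none of the lists.

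**Figure D5:**
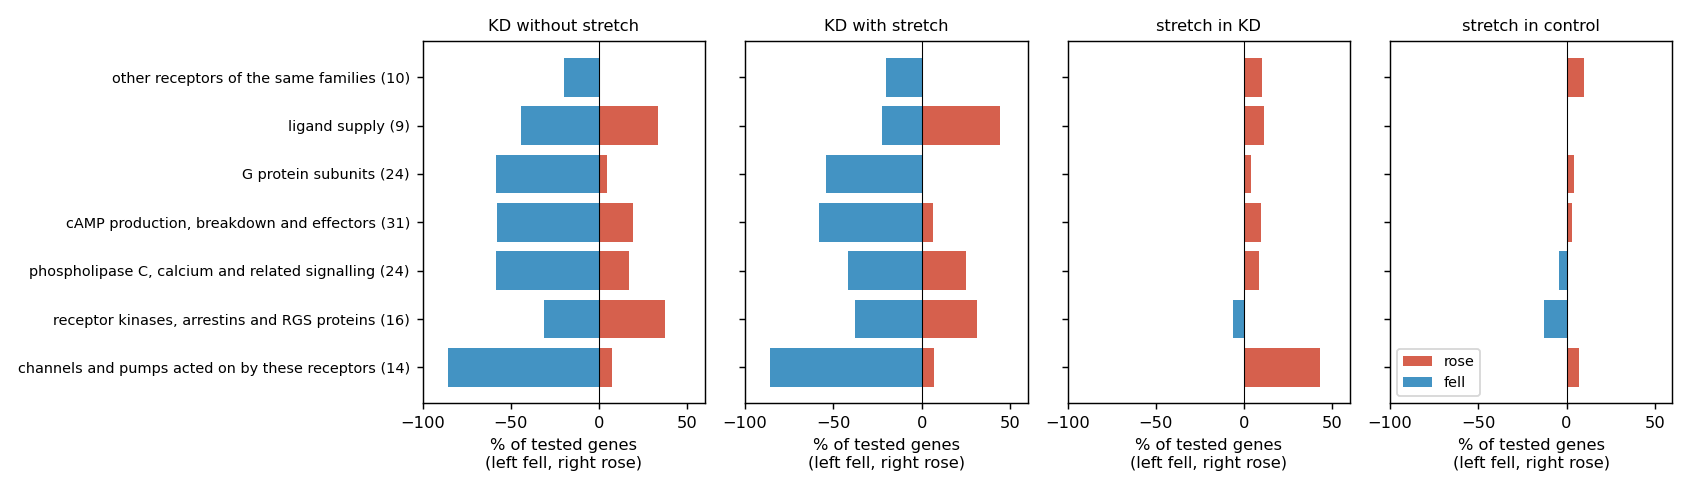
Share of tested genes of each list (their number in brackets) that rose (right of 0) or fell (left of 0) past an adjusted p of 0.05 in the knockdown and stretch comparisons. Of the 14 channels and pumps, 12 fell with the knockdown both without and with stretch.

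The genes whose profile over the 24 libraries came closest to that of a receptor were sought by the root mean square difference of centred log2 CPM. For Chrm2 these were Frem1 (0.0886) and Sphkap (0.0898), for Ednra Mrvi1 (0.153) and the collagen gene Col14a1 (0.162), and for Adra1b Upk3b (0.123) and Tigd2 (0.128). For Adrb1 it was Mogs (0.0875), and for Adora1 they were Polr3gl (0.0929) and Tpcn1 (0.107). The receptors' own spread on this scale was 0.719 for Chrm2, 0.866 for Ednra, 0.434 for Adra1b, 0.187 for Adrb1 and 0.215 for Adora1. Genes and receptors share the 24 libraries, the 4 groups and the scaling factors, and the likeness is a description.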

How the data were processed

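Estimated counts of 20351 genes, as deposited, were the starting point. A normalized signal of the same genes, also deposited, served as an alternative. GRCm38.p6, kallisto 0.44.0, R 3.4.4 and DESeq2 1.18.1 are listed in the submitters' processing notes. The sources used here do not give the annotation release, the use of strand in counting or the step from transcripts to genes. Genes on the opposite strand overlap Chrm2, Ednra, Adra1d and Adora1 in GENCODE vM21 (GRCm38), counted over whole genes with introns. Overlap of exons was not checked, so it is not known whether reads of these can be told apart.

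Estimated counts were rounded and tested with edgeR 4.0.16 (R 4.3.3) by its robust quasi-likelihood test with TMM factors. Genes were kept by filterByExpr (minimum count 10, minimum total 15), which left 14411. All 24 libraries entered 1 fit with a coefficient per group, and Benjamini-Hochberg adjustment covered all tested genes at a threshold of 0.05. Intervals are at 95%. Levels are CPM after TMM scaling, and levels between genes are per kb of the longest coding transcript in GENCODE vM21. The test was run on simulated data with known changes first.

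Named were the 9 receptors, Trim63, up to 2 rises and 2 falls per list and comparison with the smallest adjusted p at a mean CPM of at least 1, and the 2 nearest profiles per receptor (prior count 2). Some genes that this rule names are not reported here. The members and lists were chosen with earlier results of these data known. Alternatives were DESeq2 1.42.0 and its size factors, limma-voom (limma 3.58.1), no filter, a stricter filter (CPM of at least 1 in 6 libraries), only the groups compared, blocks by replicate number or code letter, each letter alone, log2 of the deposited normalized signal plus 1, and leaving out each library.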

Additional observations from a re-analysis of the deposited data

Results flagged for a closer look

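In the 36 sets of 6 libraries (9 receptors in 4 groups), 1 library stood far from the others of its group by Dixon's test. It was stretched control replicate 4 for Agtr1a, at 0.0194 CPM where the other 5 libraries were at 0, which is a single read count. Chance alone flags about 1 in 20 sets of normally distributed values. Where 5 libraries are at 0, any count in the other is flagged, so that rate does not hold for sets at such low counts.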

How the results depend on the processing

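The falls of Chrm2, Ednra and Adra1b with the knockdown kept their direction and passed under every alternative run. Without each library in turn, Chrm2 ranged from -1.56 to -1.49 without and from -1.35 to -1.26 with stretch, and Ednra from -1.81 to -1.69 and from -1.66 to -1.56. The stretch calls over all genes were less stable, and the cause was not tested. Genes called with stretch in knockdown cells numbered 1287, against 831 within letter a and 152 within letter b, and 856 to 1930 without single libraries (856 without stretched knockdown replicate 4). With stretch in control cells they numbered 857, against 3423 within letter a, 32 within letter b, 377 with only the groups compared and 565 in the deposited normalized table, and 568 (without stretched control replicate 1) to 2023 (without stretched control replicate 5) without single libraries. For the interaction they numbered 3, against 9 with the replicate block, 45 with the code letter as a block, 559 within letter a, 0 within letter b (limited to 3 libraries a group, with 618 genes at an unadjusted p under 0.05 in edgeR), 1 in the normalized table, 111 by DESeq2 and 0 to 109 without single libraries (109 without stretched control replicate 5).

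Of the 6 tested receptors, 6 were called for the knockdown with stretch, against 4 within each letter and 4 to 6 without single libraries. For the knockdown without stretch 5 were called, and 5 to 6 without single libraries. Stretch in knockdown cells gave 3 calls, also without any single library, and 1 within letter b. With stretch in control cells 2 were called, against 4 within letter a, 0 within letter b (edgeR, 3 libraries a group), 1 with only the groups compared, 1 in the normalized table and 1 to 3 without single libraries. Signs turned for changes near 0. Stretch in knockdown cells gave -0.16 for Ednrb within letter a, and -0.000874 without a filter and -0.0194 within letter b for Adora1. Stretch in control cells gave -0.0741 for Chrm2 within letter b and -0.11 for Ednrb within letter a. The interaction was 0.0917 for Adrb1 within letter a and 0.0592 for Ednrb in the normalized table. Without single libraries, stretch in knockdown cells ranged from -0.11 to 0.29 for Ednrb and from -0.0322 to 0.0415 for Adora1, and the interaction from -0.26 to 0.14 for Ednrb and from -0.0152 to 0.0742 for Adra1b.

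Some differences in CPM of the 3 genes too low to test also turned sign without single libraries. For Adra1a they ranged from -0.0291 to 0.0121 for the knockdown with stretch and from -0.0174 to 0.0300 for stretch in control cells. For stretch in knockdown cells the Adra1a difference kept its sign, at 0.0261 to 0.0499. Its exact permutation p was 0.0476 without stretched knockdown replicate 5, unadjusted and only 1 of 12 such omissions. For Adra1d they ranged from -0.0179 to 0.00353, from -0.00822 to 0.00806 and from -0.00456 to 0.0127 in the same order. For Agtr1a they ranged from -0.00293 to 0.00351 for the knockdown without stretch and from -0.00302 to 0.00745 for stretch in knockdown cells. With the median instead of the longest transcript length, non-stretched control cells had 1.17 CPM per kb for Adra1b, 0.0155 for Agtr1a and 2.23 for Adora1.

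The labels do not tie replicate numbers to shared cultures, same-numbered libraries deviated together only weakly (correlations of -0.06 to 0.14), and in only 6 of 24 comparisons of a replicate number across groups was the best match its own number. With the replicate block, 5 receptors were called for the knockdown with stretch (6 without the block), since Adora1 was lost (adjusted p = 0.051), and 3 for stretch in control cells.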
